A study of Homo sapiens with 9 samples.

Results

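The genes described here are a set of 7 that bind, export or sense zinc: the metallothioneins MT1E, MT1F, MT1G, MT1X and MT2A, the zinc exporter SLC30A1 and the metal-sensing transcription factor MTF1. They were chosen by name, as the metallothionein genes together with the exporter and the transcription factor of the same response. 6 of the 7 had a row among the 31558 genes of the count table, and MT1G is not analysed here. The RNA came from HCT116, a human colorectal cancer epithelial cell line, in 3 groups of 3 biological replicates. CRLM1-OE cells were a line that stably overexpressed the long noncoding RNA CRLM1 (LINC01767), and the control lines made alongside carried a plasmid with the antisense sequence of CRLM1 (Anti) or the empty plasmid (Ctrl). All 3 groups thus carried a plasmid. The paper describes the sequenced cells as transfected with these plasmids. Its methods also give a lentiviral vector with puromycin selection for expressing CRLM1 in HCT116. Which of these routes the samples here took is not stated. Whether a line was a pool or a single clone is not given in the sources used here, nor whether replicates were separate cultures. The p-values therefore speak only for these samples, 6 per comparison. The fit also shares information on spread across genes, so an SE or p-value does not rest on a gene's own replicates alone. No zinc level, metal treatment or protein was measured in these samples.

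Metallothioneins are small cysteine-rich proteins that hold zinc and copper in clusters of thiolates and bind cadmium when it is present. When free zinc rises in a cell, MTF1 binds it through its zinc fingers, moves to the nucleus and binds metal response elements, short DNA motifs in front of the metallothionein genes and of SLC30A1, whose product pumps zinc out across the plasma membrane. Metallothioneins and SLC30A1 are therefore widely used as readouts of zinc load, and glucocorticoids are also known to induce some metallothionein genes, MT2A among them. In the intestinal epithelium metallothioneins take part in the handling of dietary zinc.

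The 4 measured metallothionein genes lie in a row on the plus strand of chromosome 16 (GRCh38, positions from GENCODE v44). MT2A (ENSG00000125148.6) spans chr16:56608584-56609497, MT1E (ENSG00000169715.14) chr16:56625475-56627112, MT1F (ENSG00000198417.6) chr16:56657731-56660698 and MT1X (ENSG00000187193.8) chr16:56682470-56684196, so that 75.6 kb hold all 4, with gaps of 16, 30.6 and 21.8 kb between them. SLC30A1 (ENSG00000170385.9) lies at chr1:211571568-211579161 and MTF1 (ENSG00000188786.9) at chr1:37809574-37859592, both on the minus strand. All 6 are protein-coding. MT1X shares 321 bp of exonic sequence, 18.6% of its own, with a lncRNA gene on the same strand, and reads from that stretch cannot be assigned to either gene alone.

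The promoters of the members with a RefSeq promoter sequence (GRCh38.p14, 250 bases before to 50 bases after the start, 4 of the 6 measured members) were searched for the core of the metal response element, TGCACNC or TGCGCNC, on both strands. They are shown for MT2A, MT1X and SLC30A1 because these genes are the textbook targets of MTF1 whose RNA is followed below. Capitals mark the matches, written in the orientation of the gene, so that a match on the opposite strand appears as its reverse complement.
MT2A promoter, chr16:56608334-56608633, plus strand: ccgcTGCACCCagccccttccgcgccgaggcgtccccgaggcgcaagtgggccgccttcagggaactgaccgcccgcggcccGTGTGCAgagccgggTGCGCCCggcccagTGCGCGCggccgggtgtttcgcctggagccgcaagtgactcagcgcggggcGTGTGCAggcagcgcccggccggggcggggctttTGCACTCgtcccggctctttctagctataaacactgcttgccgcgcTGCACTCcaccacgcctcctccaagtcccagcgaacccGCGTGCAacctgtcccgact
MT1X promoter, chr16:56682220-56682519, plus strand: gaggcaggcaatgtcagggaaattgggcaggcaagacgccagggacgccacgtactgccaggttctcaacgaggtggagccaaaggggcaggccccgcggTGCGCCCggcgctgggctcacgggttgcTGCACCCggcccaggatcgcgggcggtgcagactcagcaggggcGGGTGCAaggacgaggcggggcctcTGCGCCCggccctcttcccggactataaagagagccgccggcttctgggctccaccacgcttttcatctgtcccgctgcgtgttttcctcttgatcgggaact
SLC30A1 promoter, chr1:211579112-211579411, minus strand: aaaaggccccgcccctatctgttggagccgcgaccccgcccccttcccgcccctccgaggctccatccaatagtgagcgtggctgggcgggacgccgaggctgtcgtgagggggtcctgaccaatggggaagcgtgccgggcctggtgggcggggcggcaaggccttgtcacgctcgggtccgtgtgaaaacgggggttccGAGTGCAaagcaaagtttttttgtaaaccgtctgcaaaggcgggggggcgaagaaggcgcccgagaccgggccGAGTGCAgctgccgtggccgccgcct

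The MT2A window held 8 matches, 5 on the gene's strand and 3 on the other, the MT1X window 4 and the SLC30A1 window 2, both on the opposite strand. The MTF1 window held 0. Of 35116 RefSeq promoter windows of the same length, 29.6% held at least 1 match, 8.6% at least 2, 0.601% at least 4 and 0.0199% at least 8. A match is a description of the letters in these windows, and no binding of MTF1 was measured here.

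Each library held between 33302292 and 44514692 reads counted on genes, so that 3 counts corresponded to 0.0674 to 0.0901 CPM (counts scaled to the library size). As a check of the labels, CRLM1 (row RP4-710M16.2) was counted 38704, 32751 and 35726 times in the CRLM1-OE libraries, 0 times in each Ctrl library, and 1951, 1777 and 1540 times in the Anti libraries. Whether the counting used strand is not given in the sources used here, so reads of CRLM1 and of its antisense sequence cannot be told apart in the Anti libraries. The 8 epithelial marker genes fixed for checking the cell type summed to 4850 to 4980 FPKM (fragments scaled to gene length and library size) in CRLM1-OE, 5520 to 5560 in Ctrl and 4570 to 4620 in Anti. The keratins KRT8, KRT18 and KRT19 carried most of this and EPCAM and CDH1 far less, while the intestinal markers CDH17, VIL1 and LGALS4 were near 0 throughout. KRT18 was at 426, 785 and 826 FPKM in CRLM1-OE, Ctrl and Anti. In CRLM1-OE it was lower than in Ctrl and in Anti (log2 fold change -1.0, edgeR adjusted p at most 1e-300 for each, the smallest value written). Against Ctrl 4 of the 8 markers were lower and 0 higher, and against Anti 4 were lower and 1 higher. Of all genes whose mean count was 100 or more, 39.1% were lower and 28.8% higher against Ctrl. Against Anti these shares were 40.4% and 33.8%, and 5 of the 8 markers reached that mean count. The 12 measured markers of other cell types summed to 4.14 to 4.69 FPKM in CRLM1-OE, 2.97 to 3.09 in Ctrl and 2.66 to 3.04 in Anti, with the leukocyte marker PTPRC near 0. COL1A1, a fibroblast collagen gene of that list, was at 2.2, 1.2 and 1.31 FPKM in the 3 groups and higher in CRLM1-OE than in Ctrl (log2 fold change 0.75, edgeR adjusted p = 1e-22) and Anti (0.7, adjusted p = 1.3e-20). CD68, a macrophage gene, was at 1.89, 1.62 and 1.4 FPKM and higher than in Anti (0.39, adjusted p = 0.011). The part of these markers in the results was not tested.

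To ask how the zinc-binding genes stood in cells with more CRLM1, each gene was compared between groups with edgeR's quasi-likelihood test on the counts, with Benjamini-Hochberg adjustment over all genes tested. A gene is said to differ when its adjusted p was at most 0.05, and to be called when the fold change was also at least 2. Levels of a gene are given in CPM scaled by TMM (trimmed mean of M values, a correction for library composition), and differences on the log2 scale with the standard error (SE) of the fit. The 3 comparisons share groups of samples, so they are not independent of each other. In these bulk RNA samples, less RNA per cell and fewer cells that express a gene cannot be told apart.

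Against Ctrl, CRLM1-OE cells had less MT1E, MT1X and SLC30A1 RNA and more MT1F and MTF1 RNA, while MT2A, the most abundant metallothionein, was not distinguishable. Of the 6 measured members, 2 were higher and 3 lower, beside 15.0% and 16.8% of all 29846 genes tested. None was called, beside 3.41% of all genes. The members' median log2 fold change was -0.14, beside -0.0477 over the 11702 genes whose mean count was 100 or more, of which 28.8% were higher and 39.1% lower. Against Anti the contrast was wider: 2 members were higher and 4 lower (17.1% and 18.5% of 30183 genes, and 33.8% and 40.4% of those whose mean count was 100 or more, as all 6 members' was), 1 was called (5.65% of genes), and the median was -0.3 beside -0.0374. Anti against Ctrl ran mostly the other way, with 3 higher and 1 lower (11.5% and 12.2% of 29714 genes, and 25.0% and 28.8% at that mean count), 0 called (1.06% of genes) and a median of 0.1 beside -0.00767. The members' shares are counts over 6 genes chosen by name and are not a test of the set.

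**Figure D1:**
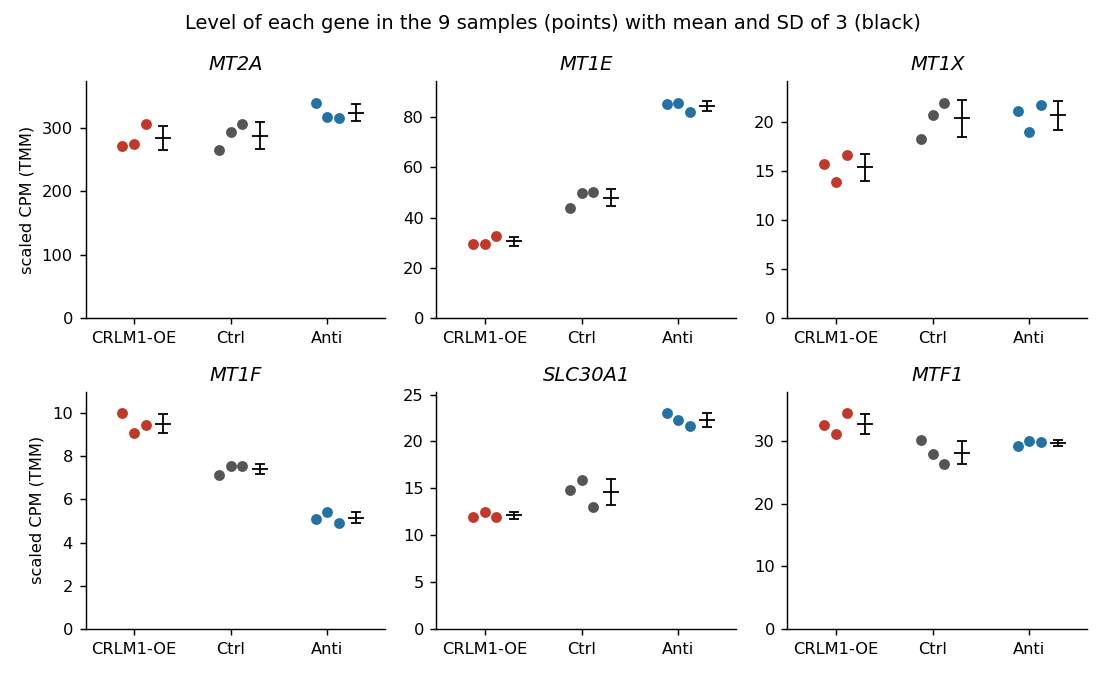
TMM-scaled CPM (y axis, from 0) of the 6 measured members in the 9 samples (coloured points, 3 per group on the x axis), with the mean and SD of each group in black. MT1E and SLC30A1 were lowest in CRLM1-OE and highest in Anti, MT1F was ordered the other way, and the CRLM1-OE and Ctrl points of MT2A overlap.

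MT1E, a metallothionein of the MT1 group, differed most. Its level was 29.6, 29.6 and 32.8 CPM in CRLM1-OE, 44, 49.7 and 50.3 in Ctrl and 85.3, 85.8 and 82.1 in Anti. The 3 groups did not overlap anywhere, and the order CRLM1-OE, Ctrl, Anti held for every sample. MT1E was 1.56-fold lower in CRLM1-OE than in Ctrl (log2 fold change -0.64, SE 0.0447, edgeR adjusted p = 3.3e-45) and 1.73-fold higher in Anti than in Ctrl (0.79, SE 0.0366, adjusted p = 2e-101). Between CRLM1-OE and Anti it was 2.75-fold lower (-1.46, SE 0.038), the only member called in any comparison, with an adjusted p at the smallest value written, 1e-300. The 3 differences passed the test under each of 14 other settings.

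MT1F, a close relative 30.6 kb further along, was ordered in the opposite way. It stood at 9.99, 9.10 and 9.44 CPM in CRLM1-OE, 7.14, 7.55 and 7.55 in Ctrl and 5.09, 5.43 and 4.92 in Anti. Again no sample of a group reached into another group. MT1F was 1.29-fold higher in CRLM1-OE than in Ctrl (0.36, SE 0.0902, edgeR adjusted p = 2.5e-04) and 1.85-fold higher than in Anti (0.89, SE 0.0958, adjusted p = 1.7e-19). It was 1.46-fold lower in Anti than in Ctrl (-0.55, SE 0.103, adjusted p = 1.1e-06). Each library held 173 to 438 MT1F counts, the fewest of the 6 members and the widest SE. The 3 differences passed under the same 14 settings.

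MT1X, at the far end of the cluster, separated CRLM1-OE from both other groups. Its CPM was 15.7, 13.9 and 16.7 in CRLM1-OE, 18.3, 20.7 and 22 in Ctrl and 21.1, 19.0 and 21.8 in Anti. Ctrl and Anti overlapped, and every CRLM1-OE sample lay below them. The log2 fold change was -0.39 against Ctrl (SE 0.0635, edgeR adjusted p = 6.5e-09) and -0.41 against Anti (SE 0.0624, adjusted p = 2.3e-10). Anti against Ctrl gave 0.00161 with a 95% interval of -0.12 to 0.12 (adjusted p = 0.99). With limma on log2(FPKM + 1) the difference from Ctrl missed the threshold (-0.27, adjusted p = 0.051).

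MT2A, which in most human tissues makes up much of the metallothionein, had the smallest difference of the members between CRLM1-OE and Ctrl. CRLM1-OE held 272, 274 and 306 CPM, Ctrl 265, 293 and 306 and Anti 340, 318 and 315. CRLM1-OE and Ctrl covered nearly the same range, and each Anti sample lay above both. CRLM1-OE and Ctrl did not differ by the test (-0.0175, 95% interval -0.0647 to 0.0297, edgeR adjusted p = 0.62). This sign depended on the scaling: by total counts the value was 0.12 with an adjusted p of 1.4e-06, where the median of all genes also moved, from -0.0477 to 0.0935, and without CRLM1-OE replicate 3 or without Ctrl replicate 1 it was -0.0714 (adjusted p = 0.027) or -0.0658 (adjusted p = 0.021). MT2A was 1.14-fold lower in CRLM1-OE than in Anti (-0.19, SE 0.0211, edgeR adjusted p = 3.5e-18) and 1.11-fold higher in Anti than in Ctrl (0.15, SE 0.0235, adjusted p = 3.8e-09). Limma on FPKM left the former at -0.14 (adjusted p = 0.073 and 0.085 with pseudocounts of 0.1 and 1), and DESeq2 left the latter at 0.15 (adjusted p = 0.12).

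SLC30A1, the plasma membrane zinc exporter and the member outside the cluster that responds to zinc through MTF1, followed the order of MT1E. It was at 11.9, 12.5 and 11.9 CPM in CRLM1-OE, 14.8, 15.9 and 13.0 in Ctrl and 23, 22.3 and 21.6 in Anti. Groups did not overlap, although Ctrl replicate 3 lay close to CRLM1-OE. In Anti it was 1.5-fold higher than in Ctrl (0.59, SE 0.0641, edgeR adjusted p = 1.5e-18), and in CRLM1-OE it was 1.84-fold lower than in Anti (-0.88, SE 0.0647, adjusted p = 8.6e-41). The difference between CRLM1-OE and Ctrl was smaller, -0.27 (SE 0.0722, adjusted p = 8.5e-04). It missed the threshold by total counts (-0.13, adjusted p = 0.19), with limma on FPKM (-0.14 and -0.1, adjusted p = 0.29 and 0.31) and without Ctrl replicate 2 (-0.2, adjusted p = 0.051).

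MTF1, the zinc sensor itself, changed little. It was at 32.6, 31.2 and 34.5 CPM in CRLM1-OE, 30.2, 28.0 and 26.4 in Ctrl and 29.2, 30.1 and 29.9 in Anti. All CRLM1-OE samples lay above the others, and Ctrl and Anti overlapped. MTF1 was 1.16-fold higher in CRLM1-OE than in Ctrl (0.21, SE 0.0494, edgeR adjusted p = 7.6e-05), which passed under all 14 other settings. Its difference from Anti was 0.14 (SE 0.0477, adjusted p = 0.0085), which missed the threshold without CRLM1-OE replicate 3 (adjusted p = 0.078) or without Anti replicate 1 (adjusted p = 0.052). Anti against Ctrl gave 0.0477 (95% interval -0.0523 to 0.15, adjusted p = 0.58), and by total counts 0.15 (adjusted p = 0.014). Against Ctrl, MTF1 RNA was thus higher in CRLM1-OE, where MT1E, MT1X and SLC30A1 RNA were lower. MT1F RNA was higher there too, and MT2A RNA did not differ. The MTF1 protein and its location in the cell were not measured.

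**Figure D2:**
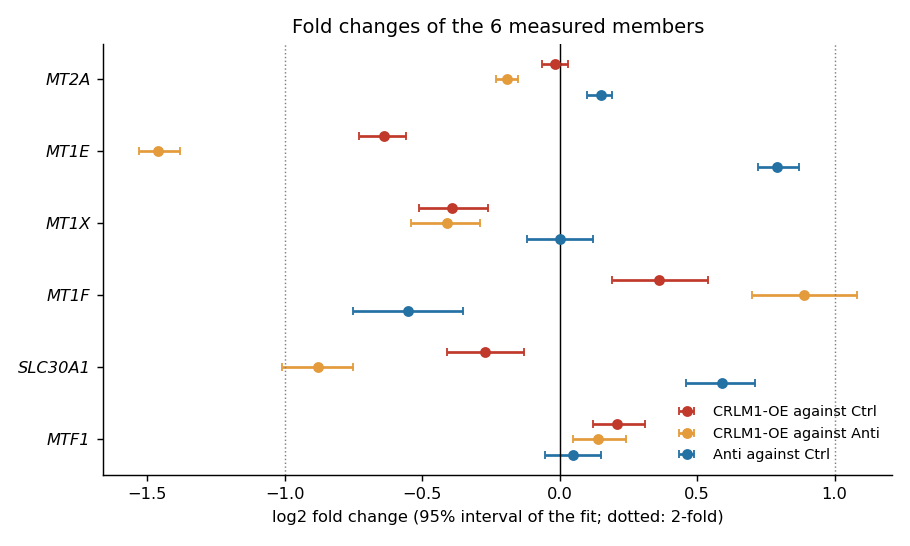
Log2 fold changes (x axis) of the 6 measured members in the 3 comparisons (colours), with 95% intervals of the edgeR fit and dotted lines at 2-fold. MT1E against Anti, at -1.46, is the point past the 2-fold line, and the MT1F points lie on the opposite side of 0 from those of MT1E in each comparison.

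Between genes, levels were compared per length, in FPKM. MT2A stood far above the other members, at 262 ± 15.7 FPKM in CRLM1-OE against 245 ± 16.9 in Ctrl cells and 289 ± 13.4 in Anti (SD, n = 3 for each). It ranked 194, 206 and 166 by mean FPKM among the 31268 genes of the FPKM table. MT1E followed with 26.7 ± 1.39, 38.5 ± 2.6 and 71.0 ± 1.8 FPKM, a rank of 1909, 1303 and 702. MT1X had 17.2 ± 1.39, 20.9 ± 1.86 and 22.2 ± 1.6 FPKM and MT1F 11.9 ± 0.537, 8.53 ± 0.235 and 6.2 ± 0.312. MTF1 and SLC30A1 were lower, at 3.76 ± 0.156, 2.99 ± 0.213 and 3.3 ± 0.0404 FPKM for MTF1 and 2.03 ± 0.0723, 2.25 ± 0.215 and 3.6 ± 0.131 for SLC30A1. The order MT2A, MT1E, MT1X, MT1F held in every group, and SLC30A1 stood below MTF1 in CRLM1-OE and Ctrl but above it in Anti. FPKM carries no TMM factor, so ratios of these means differ somewhat from the fold changes of the test.

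Summed over the 4 metallothionein genes, FPKM was 307, 308 and 338 in CRLM1-OE, 290, 318 and 332 in Ctrl and 406, 382 and 379 in Anti. CRLM1-OE and Ctrl overlapped in this total, and Anti lay above both. The make-up of the total differed in all 3 groups. MT2A supplied 82.5% ± 0.536 of it in CRLM1-OE, 78.3% ± 0.154 of it in Ctrl and 74.4% ± 0.594 in Anti (SD, n = 3). MT1E supplied 8.39% ± 0.0343, 12.3% ± 0.175 and 18.3% ± 0.56, and MT1F 3.74% ± 0.308, 2.73% ± 0.117 and 1.6% ± 0.101. The share of MT1X was 5.4% ± 0.306, 6.66% ± 0.139 and 5.71% ± 0.428.

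The ratio of MT1E to MT1F within a library does not depend on how libraries are scaled. In FPKM it was 2.07, 2.27 and 2.42 in CRLM1-OE, 4.31, 4.59 and 4.65 in Ctrl and 11.7, 11 and 11.7 in Anti. The ratio of MT2A to MT1E was 9.75 to 9.91 in CRLM1-OE, 6.25 to 6.46 in Ctrl and 3.93 to 4.23 in Anti. Neither ratio overlapped between any groups, and with 3 against 3 samples an exact two-sided permutation test cannot give a p below 0.1. For MT1E to MT1F this followed from the levels above, where both genes separated the groups in opposite orders, so it adds no further evidence.

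**Figure D3:**
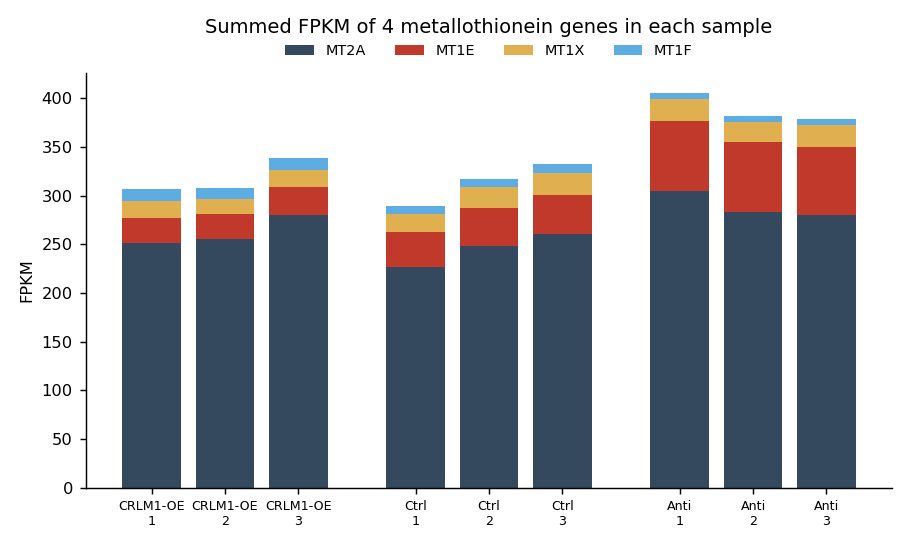
Summed FPKM of MT2A, MT1E, MT1X and MT1F (stacked colours, y axis from 0) in each of the 9 samples (x axis, replicate number under the group). MT2A fills 74.4% to 82.5% of the bars on average, and the MT1E segment grows from 8.39% in CRLM1-OE to 18.3% in Anti.

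Metallothionein genes are near-copies of each other, so it was checked whether reads could be shared. Of the 151-nt windows of the longest transcripts of MT1E, MT1F, MT1X and MT2A, 0 were identical to a stretch of another of the 21 metallothionein genes of the annotation. Allowing the 4 mismatches of the alignment, 11 of 596 MT1E windows (1.85%) matched another member of the family, MT1M being the nearest, and 0 windows of MT1F, MT1X or MT2A did. Only the longest transcript of each gene was searched. That of MT1X has 1727 nt in a gene span of 1727 bp, and that of MT2A 903 nt in 914 bp, so both are unspliced forms. Windows of spliced MT1X and MT2A RNA were thus not examined, and the 0 windows do not show that reads of spliced RNA are unique. Trimmed reads can be shorter than these windows, and the part of shared reads in the results was not tested.

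Among 15 other metallothionein genes and pseudogenes listed by name, 5 had a row, each with a mean count of at most 5. MT1JP, MT1DP, MT1CP and MT1P3 passed no test. MT1P1, a processed pseudogene on chromosome 9, had 12, 8 and 10 counts in CRLM1-OE, 4, 2 and 1 in Ctrl and 2, 3 and 3 in Anti. Its log2 fold change was 1.94 against Ctrl (SE 0.662, edgeR adjusted p = 0.012) and 1.79 against Anti (SE 0.639, adjusted p = 0.016), on counts close to the floor of 3, and 0.14 for Anti against Ctrl (adjusted p = 0.96). MT1P1 missed the threshold against Ctrl without CRLM1-OE replicate 1 (1.88, adjusted p = 0.053) or without Ctrl replicate 3 (1.67, adjusted p = 0.059), and against Anti with DESeq2 (1.84, adjusted p = 0.059), without CRLM1-OE replicate 1 (1.72, adjusted p = 0.059) or without Anti replicate 1 (1.58, adjusted p = 0.069). Reads of a processed pseudogene and of its parent genes can be hard to separate, so these values are uncertain.

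The neighbours of the cluster on chromosome 16 showed whether its genes moved with their surroundings. 11 neighbouring genes were listed and all had a row. Counts of this and the following lists are to be read beside the shares of all genes given above, and are not tests of the lists. In CRLM1-OE against Ctrl 2 were higher, 4 lower and 5 did not pass, and the 8 with a mean count of at least 100 had a median of -0.12. NUDT21, a pre-mRNA 3' end processing factor, fell by 0.46 on the log2 scale (adjusted p = 1.1e-43), HERPUD1, a gene of the endoplasmic reticulum stress response, by 0.39 (adjusted p = 6.3e-53) and OGFOD1, a ribosomal protein hydroxylase, by 0.34 (adjusted p = 1.6e-13). NLRC5, an activator of MHC class I genes, was higher by 0.41 (adjusted p = 0.0075) and BBS2, a subunit of the ciliary BBSome, by 0.15 (adjusted p = 0.021), neither of which passed in every alternative.

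Against Anti the same 5 genes gave -0.46 for NUDT21, -0.44 for HERPUD1, -0.41 for OGFOD1 (adjusted p = 4.9e-51, 9.1e-84 and 9.2e-22), -0.0782 for NLRC5 (adjusted p = 0.65) and 0.0547 for BBS2 (adjusted p = 0.52), with 2 of the 11 higher and 4 lower. In Anti against Ctrl 1 was higher and 2 lower. NLRC5 was higher by 0.47 there (adjusted p = 0.0024), which did not pass with limma (adjusted p = 0.12 and 0.089) or without Anti replicate 2 (0.35, adjusted p = 0.077). NUDT21, HERPUD1, OGFOD1 and BBS2 were at -0.0211, 0.0248, 0.0544 and 0.0772 (adjusted p = 0.67, 0.57, 0.44 and 0.43). By total counts, where the median of all genes moved to 0.1, the same genes were at 0.0837, 0.13, 0.16 and 0.18 and passed (adjusted p = 0.026, 3.5e-07, 7.4e-04 and 0.0084), and HERPUD1 and OGFOD1 also passed with limma. Over the 75.6 kb of the cluster itself, MT1E at 17.7 kb and MT1F at 50.6 kb from the start of MT2A (midpoints) differed in opposite directions in each comparison.

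**Figure D4:**
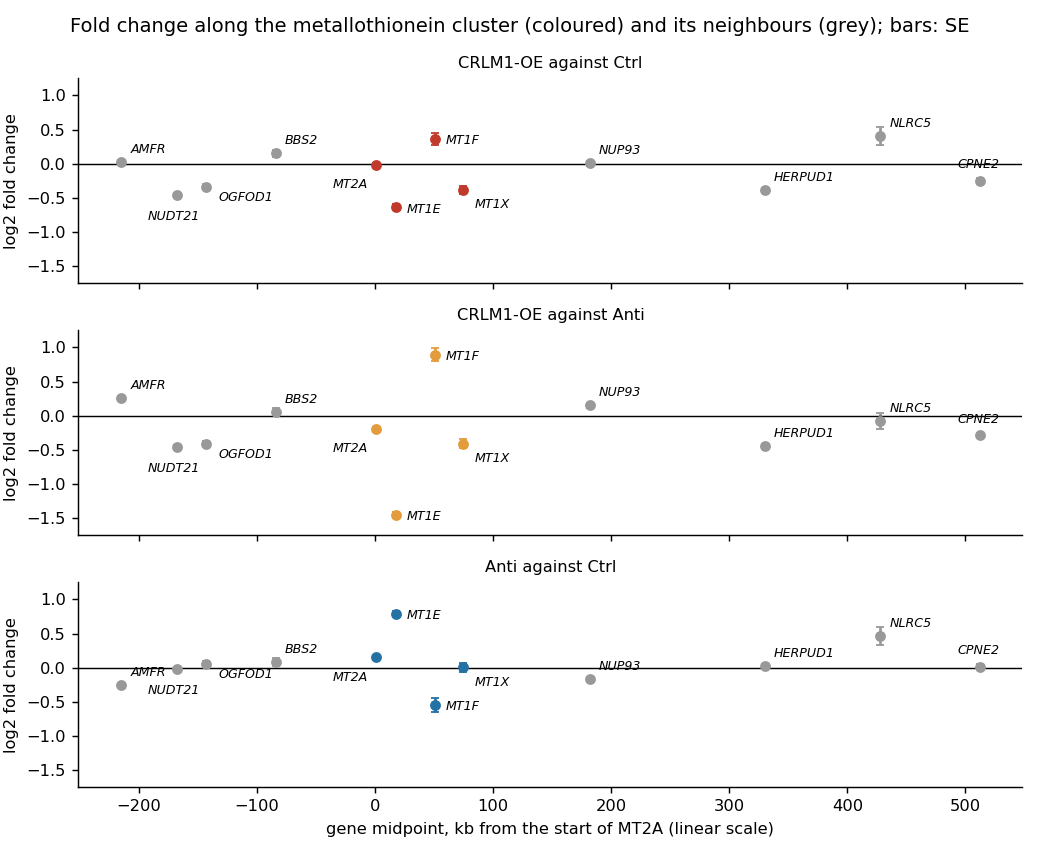
Log2 fold change with SE (y axis) against the distance of each gene's midpoint from the start of MT2A in kb (x axis), for genes whose mean count was 100 or more, in the 3 comparisons. Metallothionein genes are coloured and their neighbours grey. MT1E and MT1F lie on opposite sides of 0 in each panel.

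The other zinc transporters put SLC30A1 in context. SLC30 proteins move zinc out of the cytosol, to the outside or into organelles, and 8 of 9 other SLC30 genes had a row. In CRLM1-OE against Ctrl 1 was higher and 4 lower, in CRLM1-OE against Anti 2 were higher and 3 lower, and in Anti against Ctrl 2 of the 6 tested were higher and 2 lower, with 0 called throughout. SLC30A6, which works in the Golgi in complex with SLC30A5, was at 10.4, 11 and 10.5 CPM in CRLM1-OE, 16.5, 18.1 and 17.9 in Ctrl and 20.3, 20.6 and 20.3 in Anti. Its log2 fold change was -0.71 against Ctrl, -0.94 against Anti and 0.2 for Anti against Ctrl (adjusted p = 2e-22, 4.8e-42 and 0.0079), the last of which did not pass without Ctrl replicate 1 (0.16, adjusted p = 0.098).

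SLC30A9, a mitochondrial zinc transporter, had the same order, at 13.7, 15.4 and 15.3 CPM in CRLM1-OE, 22.6, 21.1 and 22.3 in Ctrl and 29.7, 29.7 and 26.4 in Anti. Its differences were -0.58, -0.95 and 0.35 (adjusted p = 9.3e-19, 1.9e-58 and 1.5e-09). SLC30A3, known for loading zinc into synaptic vesicles, was ordered the other way, at 12.8, 11.6 and 14.0 CPM in CRLM1-OE, 8.34, 9.24 and 8.99 in Ctrl and 7.63, 6.79 and 7.08 in Anti (0.54, 0.84 and -0.33, adjusted p = 2.2e-10, 9.5e-23 and 0.0027). The last of these differences did not pass by total counts (-0.22, adjusted p = 0.068) or with limma on log2(FPKM + 1) (-0.18, adjusted p = 0.052). SLC30A7, another Golgi transporter, gave -0.16, -0.2 and 0.0245 (adjusted p = 0.0084, 1.7e-04 and 0.79), the first of which did not pass by total counts (-0.016, adjusted p = 0.85), with DESeq2 (adjusted p = 0.053), with limma (adjusted p = 0.68 under both pseudocounts), or without CRLM1-OE replicate 1, Ctrl replicate 1 or Ctrl replicate 3 (adjusted p = 0.11, 0.11 and 0.076). By mean level SLC30A6, SLC30A9 and SLC30A7 thus stood in the same order of groups as SLC30A1. SLC30A7 was at 26.4, 29.4 and 30.4 CPM in CRLM1-OE, Ctrl and Anti, and its Ctrl and Anti samples overlapped. Among the genes described here SLC30A3 stood in the reverse order.

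SLC39 proteins bring zinc into the cytosol, and all 14 genes had a row. In CRLM1-OE 1 was higher and 5 lower than in Ctrl, and 2 higher and 5 lower than in Anti, with medians of -0.0695 and -0.0465 over the 11 genes whose mean count was 100 or more. In Anti against Ctrl 1 was higher and 2 lower of 13 tested. The higher one, SLC39A14, had mean levels of 138, 158 and 201 CPM in CRLM1-OE, Ctrl and Anti, the group order of SLC30A1. It gave -0.19 against Ctrl, -0.54 against Anti and 0.32 for Anti against Ctrl (edgeR adjusted p = 1.4e-10, 3e-103 and 1.4e-32). The lower ones, SLC39A7 and SLC39A9, were at -0.15 and -0.11 in Anti against Ctrl (adjusted p = 1.5e-07 and 0.005). SLC39A6, a plasma membrane importer, was at 60.6, 61.1 and 60.1 CPM in CRLM1-OE, 84.9, 90.3 and 83.1 in Ctrl and 90.7, 89.8 and 88.0 in Anti. It differed by -0.51 from Ctrl and -0.56 from Anti (adjusted p = 1.1e-45 and 1.4e-64), and Anti against Ctrl was 0.0323 (adjusted p = 0.58). The last passed by total counts (0.14, adjusted p = 1.6e-04) and with limma (0.12, adjusted p = 0.043 and 0.048).

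SLC39A8, an importer that also carries manganese and cadmium, gave -0.39, -0.41 and -0.00679 (adjusted p = 5.4e-06, 1e-06 and 0.99) and SLC39A3 -0.29, -0.42 and 0.1 (adjusted p = 3.1e-05, 1.2e-10 and 0.26) in the same 3 comparisons. SLC39A13, which releases zinc from vesicles of the secretory pathway, was higher in CRLM1-OE by 0.27 and 0.26 (adjusted p = 6.9e-06 and 1.3e-05), with -0.00693 for Anti against Ctrl (adjusted p = 0.98). The differences of SLC39A8 and SLC39A3 between CRLM1-OE and Ctrl did not pass with limma on FPKM (adjusted p up to 0.1 and 0.071), nor that of SLC39A3 by total counts (adjusted p = 0.059). Anti against Ctrl passed for SLC39A3 by total counts (0.21, adjusted p = 0.0039) and with limma (0.19 and 0.16, adjusted p = 0.026 and 0.031).

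**Figure D5:**
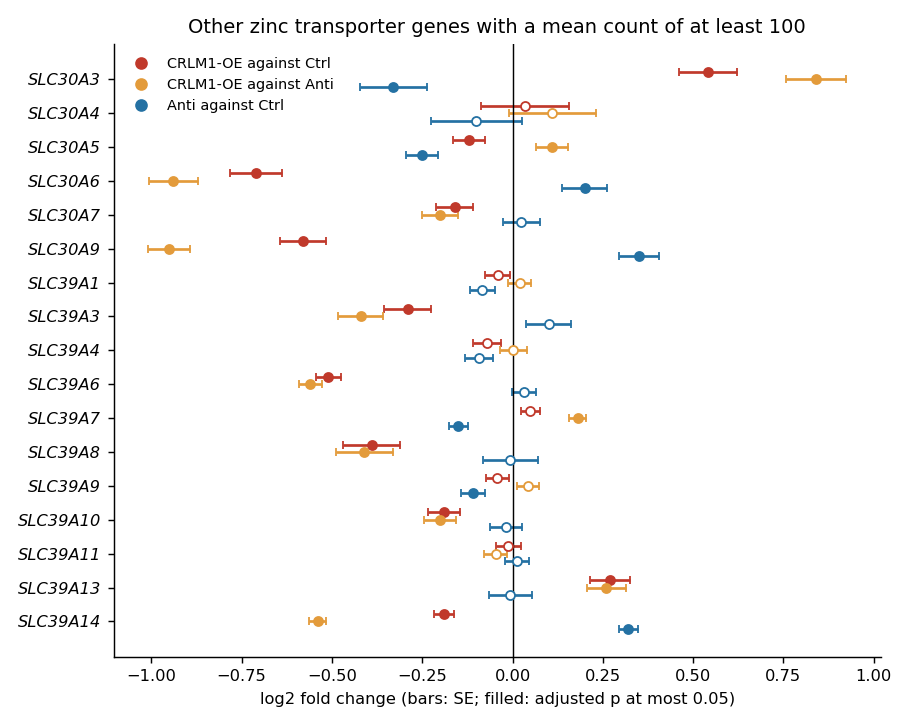
Log2 fold change with SE (x axis) of the SLC30 and SLC39 genes other than SLC30A1 with a mean count of at least 100, in the 3 comparisons (colours), filled where the adjusted p was at most 0.05. SLC30A6, SLC30A9 and SLC39A6 lie furthest to the left in CRLM1-OE against Ctrl, and SLC30A3 furthest to the right.

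Copper is the other metal that metallothioneins hold in unexposed cells. All 11 copper genes listed had a row. In CRLM1-OE against Ctrl 4 were higher and 3 lower, against Anti 4 and 5, and in Anti against Ctrl 3 and 2, with 0 called and medians of -0.0111, -0.037 and 0.0395. ATP7B, a copper-exporting ATPase, was at 7.39, 9.3 and 7.52 CPM in CRLM1-OE, 4.96, 4.58 and 4.47 in Ctrl and 6.42, 6.07 and 5.92 in Anti (0.78, 0.39 and 0.37, adjusted p = 4.1e-13, 2.0e-04 and 0.005). With limma its difference from Anti missed the threshold at a pseudocount of 1 (0.21, adjusted p = 0.056), and that of Anti from Ctrl lay at it with 0.1 (0.4, adjusted p = 0.05). ATOX1, the chaperone that hands copper to such ATPases, differed by 0.57 and 0.65 (adjusted p = 4.4e-23 and 6.1e-30), and by -0.1 for Anti against Ctrl (adjusted p = 0.33; 0.049 without Ctrl replicate 1, at -0.18).

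COX17, which carries copper toward cytochrome c oxidase, gave 0.33, 0.68 and -0.38 (adjusted p = 1.7e-11, 1.9e-45 and 4.4e-12). ATP7A, the other copper-exporting ATPase, gave -0.42 and -0.48 against Ctrl and Anti (adjusted p = 5e-05 and 8.9e-07), with 0.0419 for Anti against Ctrl (adjusted p = 0.8), and SCO1, another cytochrome oxidase copper chaperone, gave -0.22, -0.46 and 0.21 (adjusted p = 1.6e-05, 3.2e-23 and 2.3e-05). SLC31A1, the copper importer, was at -0.11, -0.037 and -0.0948 (adjusted p = 0.0083, 0.47 and 0.032). By total counts all 3 values turned positive, and neither difference that passed did so with limma or without Ctrl replicate 1 or 2. By total counts or limma on FPKM the difference of SCO1 from Ctrl did not pass (adjusted p = 0.21 to 0.24), and by limma neither did those of ATP7A from Ctrl (adjusted p = 0.13 and 0.14) and Anti (adjusted p = 0.063 and 0.068).

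Glucocorticoid response genes were listed because the hormone also induces metallothioneins. 9 of 10 had a row. In CRLM1-OE against Ctrl 3 were higher and 4 lower, against Anti 5 and 3 with 2 called, and in Anti against Ctrl 1 and 3, with medians of -0.0403, 0.17 and -0.14. Of all genes whose mean count was 100 or more, 28.8% were higher and 39.1% lower in the first comparison. The shares were 33.8% and 40.4% in the second, and 25.0% and 28.8% in the third. SGK1, a kinase, was higher by 0.97 and 1.21 in CRLM1-OE than in Ctrl and Anti (adjusted p = 3.1e-14 and 4.1e-21), with -0.27 for Anti against Ctrl (adjusted p = 0.22). DUSP1, a phosphatase that switches off MAP kinases, gave 0.71, 0.9 and -0.22 (adjusted p = 2.4e-174, at most 1e-300 and 3.8e-15). The transcription factor KLF9 gave 0.61, 0.65 and -0.0565 (adjusted p = 2.3e-12, 4.8e-14 and 0.72).

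CEBPD, a transcription factor of the same list, had the order of MT1E, at 15.4, 19.2 and 17.2 CPM in CRLM1-OE, 29.8, 31.7 and 32.9 in Ctrl and 46.0, 43.5 and 44.4 in Anti (-0.87, -1.38 and 0.48, adjusted p = 5.3e-53, 3.7e-164 and 1.1e-24). FKBP5, a co-chaperone of the glucocorticoid receptor, gave -0.33, -0.45 and 0.0933 (adjusted p = 1.2e-07, 2.6e-14 and 0.27), and NR3C1, the receptor itself, -0.18, -0.0583 and -0.14 (adjusted p = 0.012, 0.54 and 0.075). The list thus moved in both directions, and NR3C1 (-0.0359 by total counts, adjusted p = 0.69) and FKBP5 (limma, adjusted p = 0.081 and 0.095) did not pass against Ctrl under every setting. In Anti against Ctrl FKBP5 passed by total counts (0.2, adjusted p = 0.0023).

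Genes whose pattern was most like that of the members were found by the root mean square (RMS) difference of log2 CPM, each gene centred on its mean, over the 9 samples and 11696 genes. For the metallothioneins summed in TMM-scaled CPM, whose own spread was 0.166, they were ALPK3, FGFR1OP2 and KIAA1919, at RMS differences of 0.0574, 0.058 and 0.0601. For SLC30A1, with a spread of 0.365, they were ZNF664, DCLRE1A and RP11-78C3.1, at 0.0611, 0.0708 and 0.0723. For MTF1, with a spread of 0.105, they were TM2D3, TTLL4 and SMARCA4, at 0.0335, 0.0346 and 0.0362. The points of this measure share libraries and depth, and none of these genes belongs to the lists above. MT2A made up most of the metallothionein sum, with mean levels of 284, 288 and 324 CPM in CRLM1-OE, Ctrl and Anti. The sum itself was at 340, 364 and 435 CPM. No usual RMS difference between genes was computed to set these values against.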

How the data were processed

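PolyA RNA of 9 HCT116 samples was sequenced as 151-nt paired reads. The authors trimmed reads with FASTX-Toolkit, aligned them with TopHat2 to GRCh38 with up to 4 mismatches, kept uniquely mapped reads and assigned them to GENCODE v23 genes. They deposited a table of raw read counts and a table of FPKM values normalized by the authors to length and library, and the aligner's version and the strand setting are not given in the sources used here. Uniquely mapped reads under-represent genes with near-identical copies.

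Counts of genes with at least 1 count in the 6 samples of a comparison were tested with edgeR 4.0.16 (R 4.3.3; quasi-likelihood, TMM) and adjusted by Benjamini-Hochberg. SE is the log2 fold change over the root of F. Deposited FPKM served for levels between genes and for limma 3.58.1 on log2(FPKM + 0.1) and log2(FPKM + 1). Alternatives were DESeq2 1.42.0, RLE or total-count scaling, filterByExpr, a fit of all 9 samples, a replicate block and leaving out each sample. The tests were checked on simulated data with known changes. Every simulated gene was given the same spread between replicates. The check therefore does not cover genes whose replicates vary more than the fit assumes.

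Members and gene lists were chosen with earlier results of these data known. Named were all members, other metallothioneins with a row and, per list, up to 3 genes with the largest positive and up to 3 with the largest negative log2 fold change among those with adjusted p at most 0.05 in CRLM1-OE against Ctrl and a mean count of at least 100. SLC39A14, SLC39A7 and SLC39A9 were named in addition, as the SLC39 genes that differed in Anti against Ctrl, and were not refitted under the alternatives. MT1G is not analysed here, and neither are the promoters of MT1E and MT1F. Gene positions and transcripts came from GENCODE v44 and promoters from RefSeq.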

Additional observations from a re-analysis of the deposited data

How the results depend on the processing

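Of the members' values under 14 alternatives in 3 comparisons, 228 kept their direction and side of the threshold, 10 lost the threshold, 3 gained it and 11 turned in sign, of which MT2A in CRLM1-OE against Ctrl by total counts also passed it. The cause was not tested. With limma on log2(FPKM + 1), 1 member was lower in CRLM1-OE than in Ctrl, in place of 3. Leaving out 1 replicate gave 1 to 2 members higher in CRLM1-OE than in Anti, with 1 without CRLM1-OE replicate 3 and without Anti replicate 1. With few counts, as for MT1F and MT1P1, depth limits the precision.

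For MT2A in CRLM1-OE against Ctrl the log2 fold change was 0.12 by total counts and 0.1 with limma under both pseudocounts. It ran from -0.0714 to 0.0472 when 1 replicate was left out. This range passes both ends of the fit's 95% interval, -0.0647 to 0.0297, so that interval does not cover the effect of leaving out single samples. By total counts the median of all genes whose mean count was 100 or more moved from -0.00767 to 0.1 in Anti against Ctrl and from -0.0374 to 0.0217 in CRLM1-OE against Anti. In Anti against Ctrl, values close to 0 turned: MT1X was -0.000651 with DESeq2 and -0.0708 to 0.0705 with 1 replicate left out. By total counts, limma with 0.1, limma with 1 and all 9 samples, SLC39A13 was 0.1, 0.0812, 0.0672 and 0.0179, SLC39A8 0.1, 0.085, 0.0579 and 0.018, and NUDT21 0.0837, 0.0705, 0.0675 and 0.00415. By the first 3 of these KLF9 was 0.0483, 0.03 and 0.0177. By total counts ATOX1 was 0.0059 and SLC31A1 0.0099. With 1 replicate left out the ranges were -0.14 to 0.62 for MT1P1, which filterByExpr left out, -0.00267 to 0.0568 for SLC30A7, -0.041 to 0.0165 for SLC39A13, -0.0373 to 0.0237 for SLC39A8, -0.0661 to 0.11 for ATP7A and -0.11 to 0.0287 for KLF9. SLC31A1 was 0.0322, 0.00739 and 0.00688 by total counts and limma in CRLM1-OE against Ctrl, and 0.0221, 0.0105 and 0.00982 against Anti, where NR3C1 was 0.000888 by total counts and NLRC5 ran from -0.22 to 0.049 with 1 replicate left out.

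Samples with the same replicate number showed no clear shared deviation (residual correlations of -0.0226 to 0.0747 in 9 pairs, and -0.0678 to 0.0361 in 18 pairs of different number). The highest value was that of CRLM1-OE replicate 3 with Ctrl replicate 3. Correlations over many genes cannot show a shared batch whose effect is small or limited to few genes, so whether the numbers pair the samples stays unknown. With the replicate number as a block, MT1E was -0.64, -1.46 and 0.79 in CRLM1-OE against Ctrl, CRLM1-OE against Anti and Anti against Ctrl. The members higher and lower numbered 2 and 3, 2 and 4, and 3 and 1. The block changed no call of a gene refitted under the alternatives.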
